A study of Homo sapiens with 2 samples.

Results

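Subtelomeric regions are the outermost stretches of chromosomes, next to the telomere repeats that cap each end. They are known to hold segments duplicated between chromosomes close to the cap and, on many arms, gene-rich DNA further in. ZFX, whose gene lies on the X chromosome, is a transcription factor of the zinc finger family and is known mainly for binding near promoters in CpG islands. The regions described here are the ZFX peaks that lay in the outer 2 Mb of an autosome in DAOY, an established human medulloblastoma line.

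The study held 2 samples of DAOY, each 1 library without a stated treatment. One came from sheared chromatin pulled down with a rabbit antibody against ZFX, and the other, the input, from sheared chromatin that was not precipitated. The ZFX library has a deposited peak list on the build hg19, and the input was not analysed here. Peaks were taken by their midpoint, in the first 2 Mb or the last 2 Mb of chromosomes 1 to 22. The short arms of the acrocentric chromosomes 13, 14, 15, 21 and 22 carry ribosomal RNA genes and other repeats. The first 2 Mb of these chromosomes was not counted as an end and stayed in the length of the rest. This gave 39 ends, 17 on short arms (p ends) and 22 on long arms (q ends), and 1032 peaks of the 14471 in the list. The comparison was with the other 13247 autosomal peaks.

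With 1 library there was no replicate, so no p-value is given and differences are described without a test. The 95% intervals cover the counting of peaks only. They treat peaks as independent, although peaks lay in clusters, so they are too narrow. The sources used here give no read depth, and the precision of a single peak is unknown. No genome of the build hg19 was used here, so no sequence is printed for a peak and no gene was assigned to one. Gene symbols below are the outermost protein-coding genes of an arm in the order of RefSeq (GRCh38.p14), given as background on the arm and not as targets.

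Chromosome ends held more ZFX peaks for their length than the rest of the autosomes. The ends make up 2.71% of the autosomal length and carried 7.23% of the 14279 autosomal peaks (exact 95% interval 6.81% to 7.66%). That is 13.2 peaks per Mb at the ends and 4.73 per Mb elsewhere, a ratio of 2.80 (2.63 to 2.98). Assembly gaps were not subtracted from either length. Without the acrocentric chromosomes the ratio was 2.77 (2.58 to 2.96). Peaks covered 7366 bp per Mb at the ends and 2697 bp per Mb elsewhere. The ends were denser than the rest of the same chromosome on 22 of 22 autosomes, with a median ratio of 2.24. The ratio was lowest on chromosome 6, at 1.18, followed by 1.35 on chromosome 3. It was highest on chromosome 8, at 6.27, followed by 5.66 on chromosome 21, 4.84 on chromosome 5 and 4.73 on chromosome 4. The rest of chromosome 21 included its short arm.

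The ratio stayed above 1 without the chromosomes known to be rich in genes. Chromosomes 17 and 19 carried 129 and 123 end peaks, the most of any autosome, and their ratios were 3.06 and 1.99. Without chromosomes 16, 17, 19 and 22 the ratio over the remaining autosomes was 2.52. Leaving out whole chromosomes does not address gene density within the remaining ones. Gene density along the chromosomes was not measured, and its relation to the ratio was not tested. Across the 22 autosomes, the density at the ends followed that of the remaining chromosome (Pearson's r = 0.75, Spearman's rho = 0.51), as a description over chromosomes of 1 library. Without chromosomes 17 and 19 these values were 0.32 and 0.35 (n = 20), so the relation rested largely on those chromosomes.

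**Figure D1:**
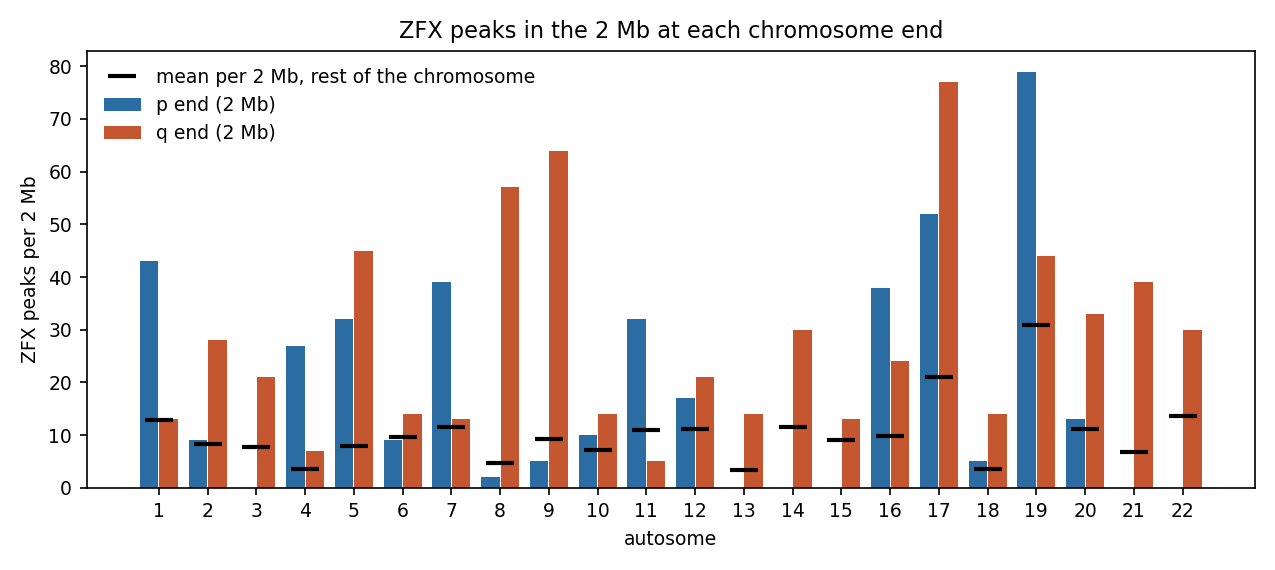
Number of ZFX peaks in the 2 Mb at each p end (blue) and q end (orange) of the autosomes, with the mean number per 2 Mb in the rest of the same chromosome (black bars). The most peaks were at 19p (79) and 17q (77), and 3p had 0; chromosomes 13, 14, 15, 21 and 22 have only a q end here.

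The ends differed widely among themselves. The number of peaks per end ran from 0 to 79 with a median of 21, and the middle 50% of ends lay between 13 and 38.5. The 5 richest ends held 329 peaks (31.9%) and the 10 richest held 539 (52.2%). A 2 Mb stretch of the remaining autosomes held 9.45 peaks on average, and 31 of 39 ends reached that value, against 36.0% of all 2 Mb windows. At least 2 times that mean, or 19 peaks, was reached by 21 of 39 ends (53.8%), against 16.4% of all 1430 autosomal windows of 2 Mb. At least 3 times the mean was reached by 16 ends, against 7.76% of windows. Of the 1391 interior windows, 214 (15.4%) held 19 peaks or more and another 214 held none. Assembly gaps were not subtracted, so an empty window need not be assembled sequence without peaks. The mean of 9.45 and the shares of windows include such windows.

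**Figure D2:**
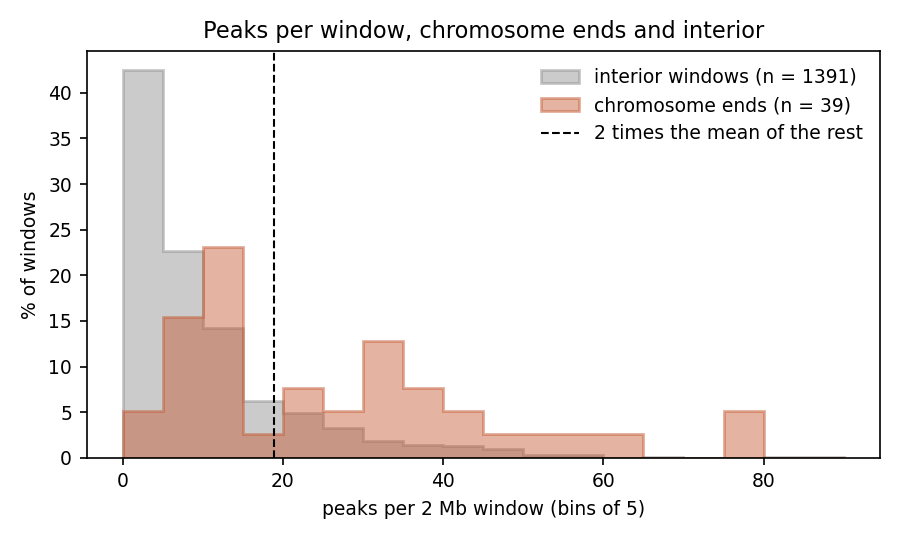
Share of 2 Mb windows by their number of ZFX peaks, for the 39 chromosome ends (orange) and the 1391 interior windows (grey), with the dashed line at 2 times the mean of the rest. The median was 21 peaks at the ends and 6 in interior windows, and both sets reached high counts (79 and 85).

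Among the richest ends, 19p held 79 peaks and 17q held 77. The remaining windows of chromosome 19 held at most 66, and those of chromosome 17 at most 47. The third was 9q with 64 peaks, 6.97 times the mean of the rest of chromosome 9. Its outermost genes are CACNA1B, which encodes a neuronal calcium channel subunit, and EHMT1, a histone methyltransferase. The fourth was 8q with 57 peaks, 12.1 times the mean of the rest of its chromosome, where no tiled interior window held more than 17. The outermost genes of 8q include the zinc finger genes ZNF16, ZNF250 and ZNF7. The fifth was 17p with 52 peaks, against a highest count of 47 in the interior windows of that chromosome.

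These 5 ends were each richer than every interior 2 Mb window of their own chromosome, as tiled here. The same was true of 5q (45 peaks), 21q (39), 20q (33) and 4p (27), so 9 of the 39 ends in all. The margin was small at 20q, where the richest interior window of the chromosome held 31. Windows at other positions were not counted, and no matching share was computed for interior windows. On 4p, known for a run of zinc finger genes that starts with ZNF595 and ZNF718, the 27 peaks were 7.52 times the mean of the rest of chromosome 4. On 21q, whose outermost genes are PRMT2, an arginine methyltransferase, and S100B, a calcium-binding protein of glia, 39 peaks were 19.7% of all peaks of the chromosome. The end of 5q, with the tripartite motif genes TRIM52, TRIM41 and TRIM7 and the ribosome-associated RACK1, held 5.66 times the mean of the rest of chromosome 5. In contrast 19q, despite 44 peaks, held fewer than 6 of the 27 interior windows of chromosome 19.

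At the other extreme, 3p held no peak in its outer 2 Mb, where the rest of chromosome 3 had 7.79 per 2 Mb. The outermost genes of 3p are CHL1, CNTN6 and CNTN4, which encode neural cell adhesion proteins. Of the 97 interior windows of that chromosome, 87 held at least 1 peak. The end of 8p held 2 peaks, with scores of 80.4 and 60.3, at 496 kb and 1694 kb from the end. The zinc finger gene ZNF596 is among the outermost genes of 8p. Next came 9p, 11q and 18p with 5 peaks each. On 9p the scores ran from 59.6 to 152, with a median of 80.3. On 11q a single peak of 1507 bp scored 744, and the other 4 scored 51.0 to 110. On 18p the scores ran from 50.8 to 254. Relative to the rest of their own chromosomes, 5 ends held fewer peaks: 3p, 8p (0.42 times the mean), 11q (0.46), 9p (0.54) and 6p (0.93). These means cover whole chromosomes, and the sequence next to an end could be poor too. The nearest complete interior window held 1 peak at 3p, 1 at 8p, 7 at 11q, 7 at 9p and 29 at 6p.

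The 2 ends of a chromosome could differ strongly in their number of peaks. Copy number of the arms in these cells was not examined. On chromosome 8, the q end held 57 peaks and the p end 2, and on chromosome 9 they held 64 and 5. On chromosome 11 the order was the other way, with 32 peaks at the p end and 5 at the q end. The p end was also richer on chromosomes 1 (43 and 13), 4 (27 and 7), 7 (39 and 13), 16 (38 and 24) and 19 (79 and 44). In all, the q end held more peaks on 11 of the 17 chromosomes with both ends and the p end on 6. Over these 17 chromosomes the p ends held 412 peaks and the q ends 494, a ratio of 0.83 (0.73 to 0.95). The ratio depended on the chromosomes included. It was 0.94 (0.82 to 1.08) without chromosome 8 and 0.95 (0.82 to 1.09) without chromosome 9, both left out after seeing the data. Other choices moved it the other way: 0.74 (0.64 to 0.85) without chromosome 19 and 0.70 (0.59 to 0.82) without chromosomes 16, 17, 19 and 22.

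The excess was not greatest at the chromosome tip. The outermost 250 kb held 7.08 peaks per Mb, the lowest value of the 8 steps of 250 kb, and the step from 500 to 750 kb held the most, 17.2 per Mb. The other 6 steps held 12.3 to 14.3 per Mb. Telomeric gaps of the assembly were not subtracted from these lengths. How well reads can be placed in the duplicated segments close to the cap was not examined. Beyond the 2 Mb border, the density was 8.36 to 9.18 per Mb out to 5 Mb and 5.69 to 6.67 per Mb from 5 to 10 Mb, still above the 4.73 per Mb of all autosomal sequence outside the ends. The higher density thus did not stop at 2 Mb.

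**Figure D3:**
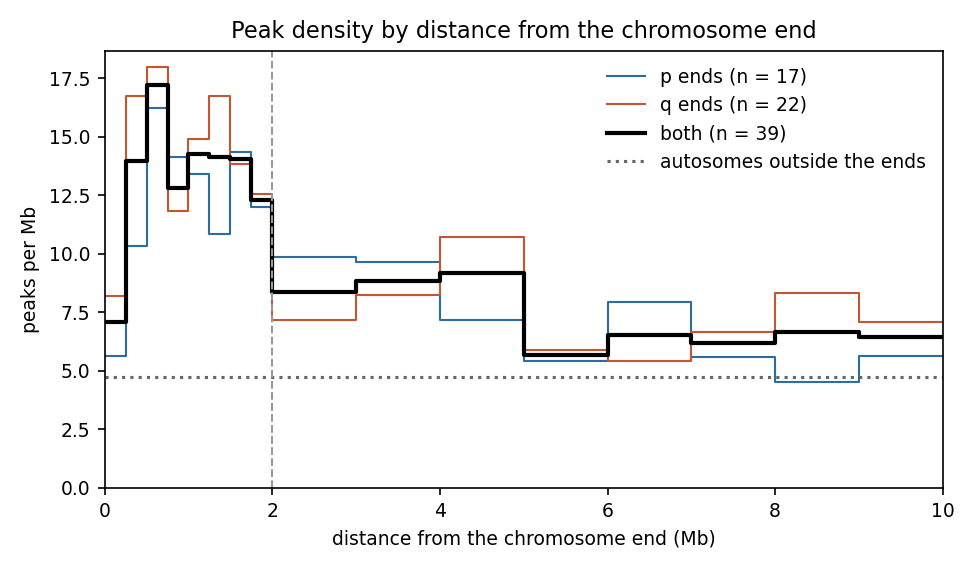
ZFX peaks per Mb by distance from the chromosome end, in steps of 250 kb to 2 Mb (dashed line) and of 1 Mb beyond, for p ends (blue), q ends (orange) and both (black); the dotted line is the mean of the autosomes outside the ends. The density was 7.08 per Mb in the outermost step, 17.2 per Mb between 500 and 750 kb, and 8.36 per Mb between 2 and 3 Mb.

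The first peak lay at a median of 201 kb from the end, over the 38 ends with a peak. It lay within 100 kb at 10 ends, within 250 kb at 24 and within 500 kb at 36, and the farthest was at 620 kb, on 9q. The peak nearest to an end was on 19q (59086637 to 59087627), 42.9 kb from the end, with a score of 483. Next were a peak on 1q (249199832 to 249200732) at 49.7 kb with a score of 227, and one on 4p (52881 to 54116) at 53.5 kb with a score of 327. The outermost genes of 1q are PGBD2 and the zinc finger genes ZNF692 and ZNF672, and that of 19q is MZF1, a zinc finger gene. The 19 peaks within 100 kb of an end scored 246 at the median and 1055 at most. They lay at 10 ends, with the most at 19q and 1q, so a few ends weigh heavily in this median. All peaks of the outermost 250 kb (n = 69) had a median score of 173 (95% interval 98.8 to 269), and the medians of the next 7 steps were 91.1 to 148.

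Just inside the 2 Mb border, within 100 kb, lay 43 peaks with a median score of 90.95. Just outside it, within 100 kb, lay 46 peaks with a median score of 139. The member closest to the border, on chromosome 16, lay 1991 kb from the end and scored 59.2. The peak closest to it from outside, on chromosome 17, lay at 2003 kb and scored 83.2.

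Although more frequent, end peaks had nearly the same scores as the others. The score is the authors' own value per peak, without a stated unit, and ranks peaks within this list. Its median was 109 at the ends (108.57, 95% interval 99.4 to 117) and 109 elsewhere (109.22, 106.8 to 111.3), a ratio of 0.99 (0.91 to 1.07). Scores under 100 belonged to 485 end peaks (47.0%), against 46.5% of all autosomal peaks. Scores of 500 or more belonged to 91 (8.82%), against 8.26%, and scores of 1000 or more to 25 (2.42%), against 2.09%. Each share lay close to that of all autosomal peaks. The ends took 7.53% of the peaks in the lowest 25% of autosomal scores, 7.03% and 6.53% in the next steps of 25%, and 7.82% in the highest, so the density ratio was 2.93, 2.72, 2.51 and 3.05 from weak to strong peaks. The higher density was thus seen among weak and strong peaks.

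Within chromosomes the scores went both ways. The median was higher at the ends on 13 autosomes and lower on 9. On chromosome 3 it was 235 at the ends and 117 elsewhere, and on chromosome 15 it was 172 and 106. On chromosome 16 it was 82.9 and 105, and on chromosome 7 it was 86.8 and 119. Among the 31 ends with 10 or more peaks, medians ran from 67.6 at 10q to 260 at 4p. The 5 richest ends had medians close to that of the other autosomal peaks: 94.1 at 19p, 101 at 17q, 113 at 9q, 106 at 8q and 110 at 17p. The 21 ends with at least 2 times the mean count had a median of 109 over 855 peaks (98.2 to 118), and the other ends had 106.8 over 177 peaks (88.2 to 132).

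**Figure D4:**
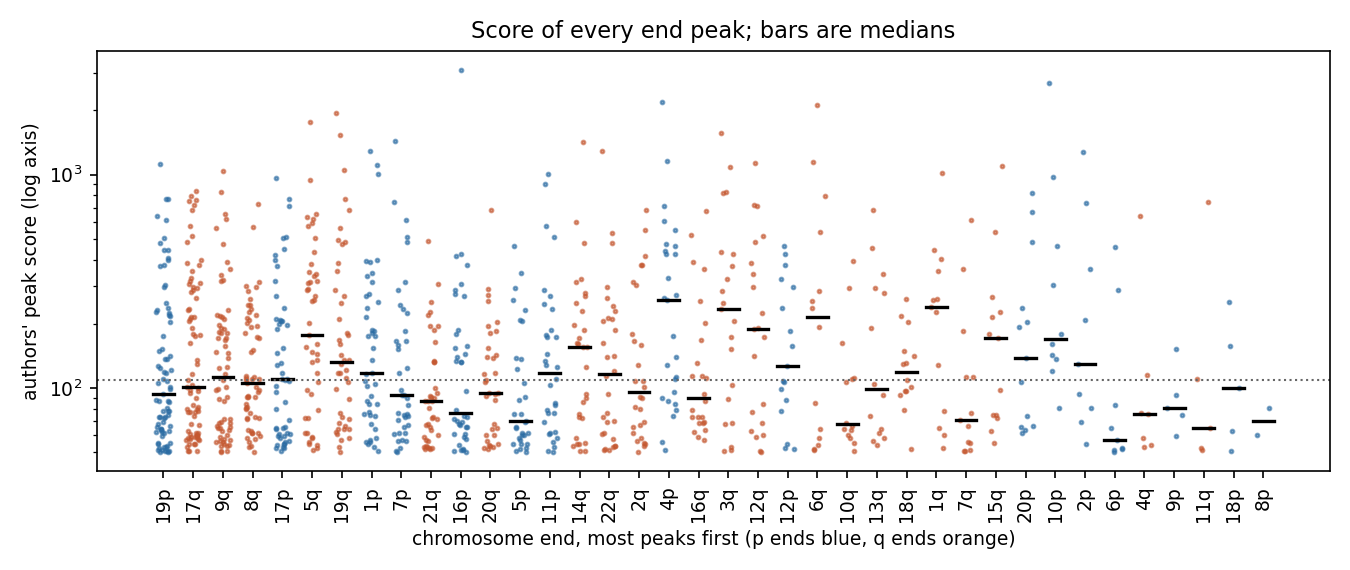
The authors' score of every peak (points, log axis) at the 38 chromosome ends that hold peaks, ordered from most to fewest peaks, with the median of each end (black bar) and the median of the other autosomal peaks (dotted line, 109). Medians lay on both sides of the line, from 56.8 at 6p to 260 at 4p, and those of the 5 richest ends lay between 94.1 and 113.

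The strongest end peak reached the score 3100, on 16p (1358870 to 1360195), a peak of 1326 bp at 1360 kb from the end. The arm is known for the alpha-globin genes. Although 16p held the strongest peak, the median of its 38 peaks was 76.3. The second, on 10p (180758 to 182184), scored 2697 and lay 181.5 kb from the end. It was solitary, with 552435 bp to its nearest neighbour, on an arm with 10 end peaks. The third was on 4p (467300 to 468106) with a score of 2196, and it was the narrowest of the 5 strongest at 807 bp. The fourth, on 6q (170150932 to 170152565), scored 2124, and the fifth, on 19q (57791089 to 57792700), scored 1947. The 25 end peaks that scored 1000 or more were spread over 16 chromosomes and 18 ends, with 3 each at 1p and 19q. Their widths ran from 649 to 2194 bp, and 6 of them had a neighbour within 1 kb.

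End peaks were narrower one by one. Their median width was 453 bp (439 to 479), against 485 bp (480 to 491) for the other autosomal peaks, a ratio of 0.93 (0.91 to 0.99). Within chromosomes the median was lower at the ends on 11 autosomes and higher on 11. The ends took 8.72% of the narrowest 25% of autosomal peaks and 6.33% to 6.98% of each wider step of 25%. Peaks of 1200 bp or more numbered 60 (5.81%), against 4.69% of all autosomal peaks. The widest were a peak of 2332 bp on 6q (170123036 to 170125367), one of 2227 bp on 19p (1250765 to 1252991) and one of 2194 bp on 22q (50219734 to 50221927). Their scores were 794, 771 and 1288. The first and second of these had a neighbour at 119 and 149 bp.

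The order of the widths turned when close peaks were joined. Joining peaks at most 1 kb apart gave 791 regions at the ends, with a median width of 635 bp, and 11013 regions elsewhere, with a median of 572 bp, a ratio of 1.11. The median of the highest score per region was 134.5 at the ends and 124.6 elsewhere. Regions of 2 or more peaks were 25.3% of those at the ends and 17.4% of the others, and regions of 3 or more were 4.17% and 2.31%. Close groups thus made up a larger share of the regions at the ends, and no test of the difference was made.

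End peaks lay closer to one another than the other autosomal peaks did. A neighbour within 1 kb was found for 441 of the 1032 end peaks (42.7%, 39.7% to 45.8%), against 32.2% of all autosomal peaks and 31.4% (30.6% to 32.2%) of those outside the ends. The median gap to the nearest peak was 4022 bp at the ends and 15232 bp elsewhere. Among the ends with 10 or more peaks, the share was highest at 4p (59.3%, 16 of 27), 22q (56.7%, 17 of 30) and 5p (56.25%, 18 of 32). It was 50.6% at 19p and 49.4% at 17q, the ends with the most peaks, and lowest at 3q (9.52%, 2 of 21). Among the ends with fewer peaks it ran from 0% at 6p, 8p and 9p to 60.0% at 11q (3 of 5). In the outermost 250 kb the share was 24.6%, from 250 kb to 2 Mb it was 38.97% to 46.7%, and in the steps from 2 to 10 Mb it was 30.3% to 36.1%.

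Dense windows elsewhere on the autosomes, set beside ends with as many peaks, had a lower share of close neighbours. In windows of 20 to 29 peaks it was 42.1% (33.2% to 51.5%) over 5 ends and 34.0% (32.2% to 35.8%) over 114 interior windows, with overlapping intervals. In windows of 30 to 39 peaks it was 45.8% (39.8% to 51.9%) over 8 ends and 36.4% (34.0% to 38.9%) over 44 interior windows. With 40 peaks or more it was 47.1% (42.4% to 51.7%) over 8 ends and 38.6% (36.5% to 40.8%) over 42 interior windows. In the last group the ends also held more peaks per window, 57.6 against 48.2 on average. In windows of fewer than 20 peaks the values lay close together, 28.9% and 31.3% for 10 to 19 peaks and 21.4% and 21.8% below that.

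**Figure D5:**
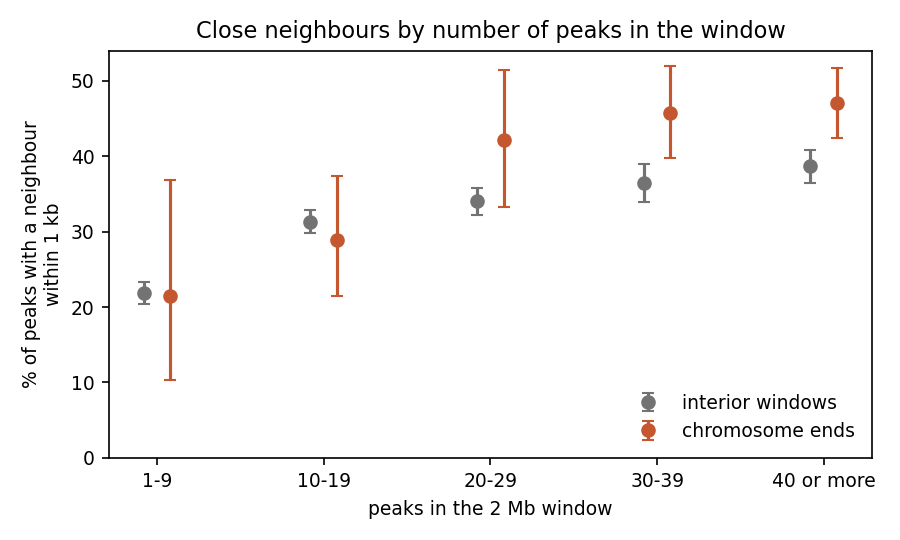
Share of peaks with a neighbour within 1 kb, by the number of peaks in the 2 Mb window, for chromosome ends (orange) and interior windows (grey), with exact 95% intervals that treat peaks as independent. From 20 peaks per window upwards the ends lay higher (42.1% to 47.1%) than interior windows (34.0% to 38.6%).

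The closest groups were found at several ends. Among the ends, the run with the most close peaks, on 7p (555756 to 559959), held 6 peaks within 4204 bp, and the largest run elsewhere on the autosomes held 7. The scores of its members were 66.8, 184, 65.6, 72.8, 167 and 56.5 in order along the chromosome, so 2 peaks of moderate score stood among 4 weak ones. Of the 33 regions with 3 or more peaks, 4 each lay at 21q and 5q, and 3 each at 17q, 19p and 8q. Within any 100 kb, the most peaks were found on 17q (79303016 to 79397996), where 16 peaks had a median score of 77.5. On 5q (180596386 to 180689036), 15 peaks, 33.3% of those of that end, scored 160 at the median and 1770 at most. On 19p, 12 peaks lay between 488505 and 575218, with a median score of 83.9 and none above 237. On 8q, 12 peaks lay between 145010727 and 145065284, with a median of 93.1 and none above 212.

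Some ends below the median count held most of their peaks in a short stretch, and others did not. On 4q, 5 of 7 peaks lay within 100 kb, between 190861050 and 190944024, and 1 of them scored 638. On 1q, 7 of 13 peaks lay between 249119385 and 249200732, with a median score of 258, and 1174 kb was the longest stretch without a peak midpoint between peaks of that end. On 11q, 3 of 5 peaks lay between 134093493 and 134095171. At 8p the 2 peaks were 1198 kb apart, and at 6p and 9p none of the 9 and 5 peaks had a neighbour within 1 kb.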

How the data were processed

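ZFX ChIP-seq in DAOY cells was analysed for 1 library, grouped by the antibody in the labels; the input was not analysed here. Bowtie2 2.0.0 and hg19 are named, without roles, per the submitters' processing notes. Peak names in the deposited list carry the name MACS; the sources used here give no version, threshold or control of the calling. Starts were taken as counted from 0 and are printed from 1. The score of a peak was deposited by the authors with no unit stated. Chromosome lengths were rounded to 10 kb, and assembly gaps were not subtracted. Windows of 2 Mb were tiled between the ends, and incomplete ones were dropped. Intervals are exact (Clopper-Pearson, or order statistics for medians). Functions were checked on simulated lists. Named by rule were the 5 strongest, 3 widest and 3 outermost peaks, the 5 richest and 5 poorest ends and the run with the most peaks among the ends; others were named after their values were seen. The members, lists and comparisons were chosen with earlier results of these data known. Alternatives concerned end size, score, joining, lengths, thresholds and chromosomes. From RefSeq (GRCh38.p14) only symbols and their order were used, leaving out symbols that start with LOC. Computing used scipy 1.17.1, pandas 2.3.3 and numpy 2.4.6 under Python 3.11.15, and matplotlib 3.10.9 drew the figures.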

Additional observations from a re-analysis of the deposited data

How the results depend on the processing

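Of 78 alternatives for 7 results, 59 kept the value within its 95% interval, or within 1.5 times the count. The ratio of density was above 1 in each of its alternatives. It was 2.58 with close peaks joined, 2.48 with ends of 3 Mb, 2.32 with ends of 5 Mb, 2.52 without chromosomes 16, 17, 19 and 22, and 3.14 over the length between outermost peaks. The share of autosomal peaks was 6.70% with close peaks joined, 3.49%, 9.51% and 14.4% with ends of 1, 3 and 5 Mb, which changes the share by construction, and 5.98% without those 4 chromosomes. Ends with at least 2 times the mean count (3 times in 1 alternative) numbered 14 to 21, of fewer ends where chromosomes were left out. The ratio of p to q ends was 0.96 with ends of 5 Mb and 0.70 without those 4 chromosomes. With close peaks joined, the ratio of median scores was 1.08 and that of median widths turned to 1.11. Among peaks above the median score the ratio of widths was 1.00, and 19.7% of end peaks had a neighbour, since both had to pass. That share was 38.6% with ends of 5 Mb, 35.4% at 500 bp and 51.6% at 5 kb. Where no construction is named, the cause was not tested. Chromosomes 5, 8, 9, 17 and 21 were left out singly as alternatives chosen after seeing the data. No paired analysis was possible because only 1 library has peaks. Depth is unknown, so missed weak sites cannot be counted.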

Other observations

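Chromosome X was outside the autosomal ends described above. Its first 2 Mb, where the placement of reads was not examined, held 0 of its 177 peaks. No hypothesis was tested on this value.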
